A study of Lotus japonicus with 18 samples.

Results

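The histone, cyclin and cell division genes of the legume Lotus japonicus were examined in shoots of wild-type (WT) plants and of Lmyb36-1 and Lmyb36-2, called line 1 and line 2 here, which the series' design text describes as knockouts of LjMYB36, a MYB transcription factor gene. Members were the entries of the deposited gene table whose Swiss-Prot name, given by similarity, begins as a histone, a cyclin or a mitotic cyclin, or contains cyclin-dependent kinase, DNA replication licensing factor or proliferating cell nuclear antigen. This gave 164 of 33994 entries: 65 core and linker histones, 56 cyclins, 30 cyclin-dependent kinases with their inhibitors and a regulatory subunit, 12 MCM licensing factors and 1 PCNA gene. The rule used no measured value. All plants were sampled after 34 days of growth on Hornum nutrient solution, 4 hours into the light period. Control plants, called untreated here, received no added NaCl, and salt plants received steps of 50 mM every 4 days up to 100 mM, with 2 days at that level. Each of the 6 groups (WT, line 1 and line 2, each under control and salt) held 3 libraries of polyadenylated RNA labelled as biological replicates.

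A dividing plant cell first loads rings of MCM proteins onto its replication origins, and these rings unwind the DNA in S phase while PCNA clamps the polymerases to it. Histones are made largely in S phase to package the new DNA, and cyclins bound to cyclin-dependent kinases drive entry into S phase (D-type), passage through it (A-type) and mitosis (B-type, with the plant-specific B-type kinases). In shoots, cells divide mainly in the apex and in young leaves. Some members, such as H3.3, CDKC and the T-type and U-type cyclins, are not tied to division. In bulk samples of this kind, fewer dividing cells and less RNA per cell cannot be told apart.

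Recovered read totals ran from 42125949 to 101713201 per library, and the members took 0.469% to 0.606% of them. Rubisco small subunit (LotjaGi2g1v0052900) stood at 11496 to 16198 FPKM, as in green tissue, and the highest value of 4 leghemoglobin genes, which mark nodules, was 0.257 FPKM. The labels do not say which gene carries the mutation. Of 5 genes described as MYB36, none was listed at 0 in a library of either line, so the lines could not be checked by their target. The most abundant, LotjaGi4g1v0091600, had 6.36 ± 0.285 FPKM in untreated WT, 4.19 ± 0.768 in untreated line 1 and 4.02 ± 0.490 in untreated line 2, and with salt 0.847 ± 0.131, 3.90 ± 1.57 and 2.85 ± 0.631 (SD, n = 3). A low one, LotjaGi4g1v0298100, was higher in the lines, with 0.0911 ± 0.0517 FPKM in untreated WT, 1.405 ± 0.735 in untreated line 1 and 0.771 ± 0.127 in untreated line 2, and with salt 0.0962 ± 0.0385, 0.797 ± 0.0896 and 0.414 ± 0.265. No MYB36 gene had a lower mean than WT in both lines and both conditions. The libraries also fell into an upper set of 8 and a lower set of 10 along the first principal component of their deviations from the group means, which took 30.75% of that variance. The sets cut across the groups: each group had 1 or 2 libraries of the upper set. Both line 1 groups had 2 and the WT and line 2 groups had 1 each. The comparisons of line 1 with WT were therefore unbalanced for the set, and those of line 2 with WT were not. The 8 are also columns 11 to 18 of the deposited table. What separates the sets is not given in the labels, and results that move with them are given below with the set as a term.

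Of the 164 members, 114 reached 1 FPKM in at least 3 libraries and were tested, with values on the log2(FPKM + 0.5) scale, which understates changes of low genes. Histones were the most abundant: the leading H3.3 gene averaged 1068 FPKM over the 18 libraries, the leading H2B gene 429.7, a linker H1 gene 251 and the leading H2A gene 157. Among the others, the kinase regulatory subunit averaged 128 FPKM, the highest cyclin 43.2, PCNA 32.0, CDKB2-2 17.8 and the highest MCM gene 11.8. The other 50 members were low throughout: none passed 2.45 FPKM in any library, and 24 were listed at 0 in every library. They include 23 of 32 H3 genes, 6 of 14 H4 genes and 5 of 12 MCM genes, and they were not tested. The members lay on chromosomes 1 to 6, with 45, 24, 37, 24, 14 and 20 of them.

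The lines labelled as knockouts were compared with WT in each condition. Under control, 11 members were lower and 3 higher in line 1, and 12 lower and 2 higher in line 2 (adjusted p under 0.05, limma). Among all 20433 tested genes, 4.31% were lower and 7.37% higher in line 1, and 5.35% lower and 7.22% higher in line 2. Of the 114 members, 12.3% passed in each of these comparisons, against 11.7% and 12.6% of all genes. With salt, 12 members were lower and 5 higher in line 1, and 20 lower and 6 higher in line 2. The background there was 4.77% lower and 11.2% higher in line 1, and 10.2% lower and 14.9% higher in line 2. The median member changed by -0.01, -0.09, -0.10 and -0.18 on the log2 scale in these 4 comparisons, in the order given, against 0.00, -0.01, 0.01 and 0.00 over all tested genes. With the library set as a term the member medians were -0.09, -0.09, -0.14 and -0.18, so those of line 1 moved and those of line 2 did not. Without overlap between the libraries, 24 members lay below WT and 11 above in untreated line 1 (14.2% and 15.6% of all tested genes), and 32 and 7 in untreated line 2 (18.6% and 18.2%). With salt it was 21 and 8 in line 1 (14.2% and 17.8%), and 28 and 9 in line 2 (16.3% and 19.7%). Both lines were set against the same WT libraries in each condition, so the results of the lines are not independent, and the lines were not compared with each other.

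These splits depended on the scaling. With quantile normalization the members split into 1 higher and 13 lower in untreated line 1, 1 and 16 in salt-treated line 1, and 4 and 28 in salt-treated line 2. With each library scaled to its gene total they split into 1 higher and 8 lower in untreated line 1, 1 and 12 in salt-treated line 1, and 3 and 7 in untreated line 2. In untreated line 1 the count of 14 called members fell to 6, 9 and 4 without WT control replicate 1, 2 and 3, and to 8, 6 and 5 without line 1 control replicate 1, 2 and 3. In untreated line 2 it was 7 without line 2 control replicate 3, 9 without its replicate 1 and 8 without WT control replicate 3. Changes were small. Of 105 called changes over all comparisons, 2 reached 2-fold: those of Cyclin-U1-1 with salt in line 1 and of the inhibitor SMR3 with salt in line 2. Leaving out each library of a comparison in turn, 41 of the 105 stayed called in every fit.

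**Figure D1:**
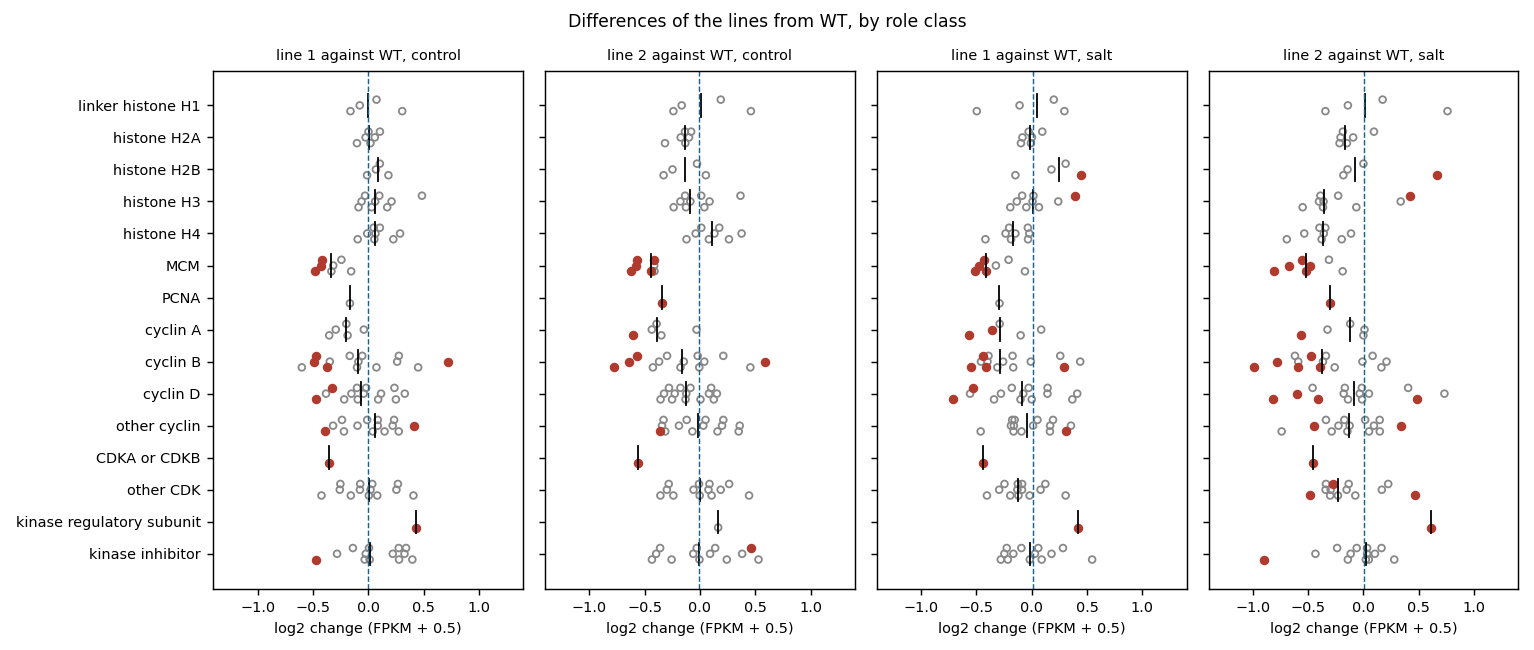
Log2 change of each tested member between each line and WT (x axis, log2 of FPKM + 0.5), by role class (y axis), in 4 comparisons. Filled points passed an adjusted p of 0.05 (limma), bars mark class medians and the dashed line marks the median change of all tested genes. All 7 MCM points lie below 0 in each panel, whereas histone points lie on both sides of 0 in line 1 under control.

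The MCM genes, subunits of the replicative helicase, had the lowest median change in both lines and conditions among the role classes with more than 1 tested gene. The summed level of the 12 was 63.1 ± 1.72 FPKM in untreated WT, 48.8 ± 2.49 in untreated line 1 and 44.0 ± 1.2 in untreated line 2, and with salt 69.8 ± 1.4, 53.4 ± 2.67 and 47.6 ± 4.50 (SD, n = 3). Of 7 tested MCM genes, 3 were lower in untreated line 1, 5 in untreated line 2, 4 in salt-treated line 1 and 5 in salt-treated line 2, or 42.9%, 71.4%, 57.1% and 71.4%, and none was higher. Among all tested genes the shares lower were 4.31%, 5.35%, 4.77% and 10.2%. The estimates of all 7 were negative in each of the 4 comparisons, with medians of -0.33, -0.44, -0.41 and -0.52. All 3 line libraries lay below all 3 WT libraries for 6, 7, 4 and 6 of the 7, in the order untreated line 1, untreated line 2, salt-treated line 1 and salt-treated line 2, where 14.2%, 18.6%, 14.2% and 16.3% of all tested genes did so.

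MCM6 (LotjaGi6g1v0247200, chromosome 6, bases 55943684 to 55949455) showed the lowest p of the class. Its FPKM values were 8.82, 8.56 and 8.21 in untreated WT and 9.44, 9.29 and 9.12 in salt-treated WT. They were 6.71, 5.92 and 6.09 in untreated line 1, 6.95, 6.59 and 5.57 in salt-treated line 1, 5.70, 5.85 and 5.22 in untreated line 2 and 6.15, 5.15 and 4.15 in salt-treated line 2. Each of the 12 line libraries was below each of the 6 WT libraries. The log2 change was -0.42 (95% interval -0.67 to -0.17, adjusted p = 0.0284) in untreated line 1 and -0.57 (95% interval -0.82 to -0.32, adjusted p = 0.00409) in untreated line 2. With salt it was -0.51 (95% interval -0.77 to -0.26, adjusted p = 0.00633) in line 1 and -0.81 (95% interval -1.06 to -0.55, adjusted p = 9.36e-05) in line 2. In untreated line 1 the call was kept only without line 1 control replicate 1 (adjusted p otherwise up to 0.112), and the other 3 calls were kept without any 1 library.

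MCM2 (LotjaGi4g1v0332400, chromosome 4, bases 71146966 to 71152826) had 11.0, 10.2 and 10.2 FPKM in untreated WT and 11.3, 10.5 and 11.9 in salt-treated WT. Line 1 had 8.53, 7.52 and 7.13 under control and 8.43, 7.62 and 8.39 with salt, and line 2 had 7.25, 8.16 and 7.33 and 7.89, 7.19 and 5.64. As for MCM6, every line library was below every WT library. MCM2 fell by 0.42, 0.44, 0.44 and 0.67 on the log2 scale in untreated line 1, untreated line 2, salt-treated line 1 and salt-treated line 2, with adjusted p of 0.0219, 0.0147, 0.0132 and 0.000326. The line 2 salt call was kept without any 1 library. That of untreated line 1 was kept only without WT control replicate 2 or line 1 control replicate 1 (adjusted p otherwise up to 0.0972), that of untreated line 2 lost without WT control replicate 1 or line 2 control replicate 1 or line 2 control replicate 3 (adjusted p up to 0.0621), and that of salt-treated line 1 lost without WT salt replicate 3 or line 1 salt replicate 2 (adjusted p up to 0.0622).

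MCM5 (LotjaGi4g1v0283800, chromosome 4, bases 65609748 to 65615275) had 11.3, 13.0 and 12.8 FPKM in untreated WT, 10.9, 10.7 and 9.56 in untreated line 1 and 8.85, 9.41 and 9.21 in untreated line 2. With salt it had 16.6, 13.9 and 17.5 in WT, 12.2, 11.8 and 11.6 in line 1 and 12.4, 10.8 and 8.96 in line 2. In each condition the WT libraries lay above those of both lines. The change passed in 3 comparisons, at -0.41 (adjusted p = 0.024) in untreated line 2, -0.41 (adjusted p = 0.0205) in salt-treated line 1 and -0.56 (adjusted p = 0.00169) in salt-treated line 2, and was -0.24 (adjusted p = 0.201) in untreated line 1. The line 2 control call was kept only without WT control replicate 1 (adjusted p otherwise up to 0.0859), and that of salt-treated line 1 kept only without WT salt replicate 2 or line 1 salt replicate 1 (adjusted p otherwise up to 0.0923).

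One of 2 tested MCM4 genes, LotjaGi3g1v0262900 (chromosome 3, bases 48654443 to 48660257), averaged 9.26 ± 0.800 FPKM in untreated WT against 6.46 ± 0.277 in line 1 and 5.84 ± 0.427 in line 2. It fell under control by 0.48 in line 1 (adjusted p = 0.0176) and 0.62 in line 2 (adjusted p = 0.00309), and with salt in line 2 by 0.52 (adjusted p = 0.00601). In line 1 with salt its change was -0.21 (adjusted p = 0.295), with overlapping libraries. Its line 1 control call was lost without WT control replicate 1 or line 1 control replicate 1 (adjusted p up to 0.0796). MCM7 (LotjaGi1g1v0760100, chromosome 1, bases 133331408 to 133337145) fell by 0.58 in untreated line 2 (adjusted p = 0.00857) and by 0.48 in salt-treated line 1 (adjusted p = 0.0212), and its change was -0.33 (adjusted p = 0.131) in untreated line 1 and -0.31 (adjusted p = 0.101) in salt-treated line 2. Its line 2 call was kept without any 1 library, and its line 1 call lost without WT salt replicate 2 or line 1 salt replicate 3 (adjusted p up to 0.104). MCM3 (LotjaGi4g1v0023500, chromosome 4, bases 2898816 to 2904927) passed in salt-treated line 2 alone, at -0.48 (adjusted p = 0.0225), a call lost without WT salt replicate 2 or WT salt replicate 3 or line 2 salt replicate 3 (adjusted p up to 0.122), and lay between -0.41 and -0.32 in the other 3. The second MCM4 gene, LotjaGi1g1v0631500_LC, passed in none, with values from -0.41 to -0.06. The remaining 5 MCM entries were not tested: the highest value of any of them was 0.937 FPKM, and 2 were listed at 0 in every library.

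Leaving out 1 library changed how many MCM genes passed, not the direction of most. The number lower ranged from 0 to 2 in untreated line 1, 3 to 4 in untreated line 2, 2 to 4 in salt-treated line 1 and 4 to 5 in salt-treated line 2, with at least 6 of the 7 estimates negative in each fit. The count of 0 came without WT control replicate 1, and there were 2 without WT control replicate 2 or line 1 control replicate 1 and 1 without each of the others. In salt-treated line 1 it was 2 without WT salt replicate 3 or line 1 salt replicate 2 or 3, and in untreated line 2 it was 3 without line 2 control replicate 1 or 3. With the library set as a term the counts were 3, 5, 4 and 5, in the order untreated line 1, untreated line 2, salt-treated line 1 and salt-treated line 2. Within the lower set alone they were 0, 0, 0 and 2, and within the upper set alone 0, 1, 1 and 3. In both, 6 or 7 of the 7 estimates were negative in each comparison. Summed MCM levels did not follow the library sets: 4 of the 8 upper libraries lay above their group mean.

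**Figure D2:**
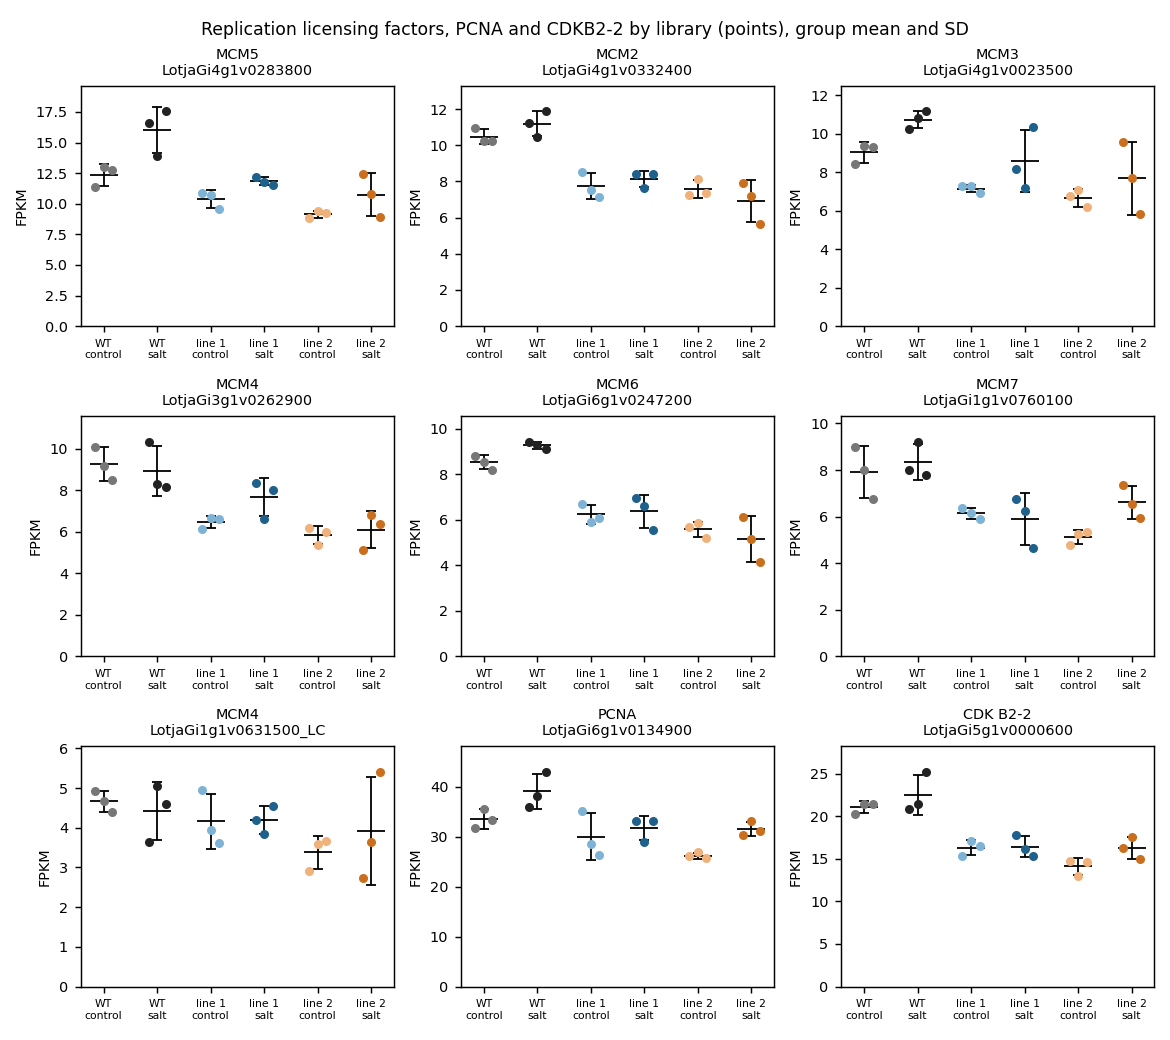
FPKM (y axis) of the 7 tested MCM genes, PCNA and CDKB2-2 in each library (points) by group (x axis), with group means and SD as bars (n = 3). For MCM2, MCM6 and CDKB2-2 the 6 WT points lie above all 12 points of the lines.

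PCNA (LotjaGi6g1v0134900, chromosome 6, bases 38958042 to 38960265), the polymerase clamp, had 31.6, 35.5 and 33.2 FPKM in untreated WT, 35.2, 28.5 and 26.2 in untreated line 1 and 26.1, 26.8 and 25.6 in untreated line 2. With salt it had 35.98, 38.1 and 42.9 in WT, 33.2, 29.0 and 33.1 in line 1 and 30.4, 33.1 and 31.0 in line 2. Line 2 lay below WT without overlap in both conditions, and line 1 overlapped WT under control but not with salt. It was lower in line 2, at -0.35 (adjusted p = 0.0359) under control and -0.30 (adjusted p = 0.042) with salt, and was -0.17 (adjusted p = 0.356) and -0.29 (adjusted p = 0.0675) in line 1. The line 2 control call was lost without any 1 of the 6 libraries (adjusted p up to 0.111), and the salt call was kept only without WT salt replicate 1 (adjusted p otherwise up to 0.163). Both were also lost with scaling to the gene total.

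Other genes of DNA synthesis, taken from a list of origin proteins, polymerase subunits, replication factors and nucleotide enzymes, were counted beside the members. Of 46 tested, 6 were lower and 0 higher in untreated line 1, 5 and 0 in untreated line 2, 6 and 1 in salt-treated line 1, and 9 and 2 in salt-treated line 2. The shares lower were 13%, 10.9%, 13% and 19.6%, against 4.31%, 5.35%, 4.77% and 10.2% of all tested genes. The shares higher were 0%, 0%, 2.17% and 4.35%, against 7.37%, 7.22%, 11.2% and 14.9%. The median change of the list was -0.19, -0.27, -0.17 and -0.23. Named here are genes among the 2 with the smallest p in a comparison. These were origin recognition subunit 6 (LotjaGi2g1v0304700) at -0.63 (adjusted p = 0.0192) and flap endonuclease 1 (LotjaGi5g1v0234800) at -0.66 (adjusted p = 0.0257) in untreated line 1. In untreated line 2 there were replication factor C subunit 3 (LotjaGi1g1v0261200) at -0.73 (adjusted p = 0.00828) and a replication protein A subunit (LotjaGi4g1v0255200) at -0.59 (adjusted p = 0.0112). With salt, the catalytic subunit of DNA polymerase alpha (LotjaGi3g1v0127800) was at -0.69 (adjusted p = 0.00374) in line 1 and that of polymerase epsilon (LotjaGi3g1v0479600) at -0.65 (adjusted p = 0.00201) in line 2. One thymidine kinase gene (LotjaGi6g1v0285000), a nucleotide salvage enzyme, went the other way in salt-treated line 2, at 0.57 (adjusted p = 0.000472).

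The B-type cyclin-dependent kinase CDKB2-2 (LotjaGi5g1v0000600, chromosome 5, bases 128861 to 131487), whose Arabidopsis namesake acts from G2 to mitosis, was lower in both lines and both conditions. It had 20.2, 21.5 and 21.4 FPKM in untreated WT, 15.3, 17.1 and 16.5 in untreated line 1 and 14.7, 13.0 and 14.6 in untreated line 2. With salt it had 20.9, 21.4 and 25.2 in WT, 17.8, 16.1 and 15.4 in line 1 and 16.3, 17.6 and 14.9 in line 2. All 12 line libraries lay below all 6 WT libraries. The log2 changes were -0.36 (95% interval -0.56 to -0.16, adjusted p = 0.0218) and -0.56 (95% interval -0.76 to -0.36, adjusted p = 0.000788) under control and -0.44 (95% interval -0.64 to -0.24, adjusted p = 0.00402) and -0.46 (95% interval -0.66 to -0.25, adjusted p = 0.00222) with salt, for line 1 and line 2. In untreated line 1 the call was kept only without WT control replicate 1 or line 1 control replicate 2 (adjusted p otherwise up to 0.0772), and the other 3 were kept without any 1 library. Within the 8 upper libraries none of the 4 calls held, with values of -0.35, -0.54, -0.29 and -0.24 in the order untreated line 1, untreated line 2, salt-treated line 1 and salt-treated line 2.

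Of 14 tested B-type cyclins, which activate the kinases of mitosis, 3 were lower and 1 higher in untreated line 1, 3 and 1 in untreated line 2, 3 and 1 in salt-treated line 1, and 5 and 0 in salt-treated line 2. The shares lower were 21.4%, 21.4%, 21.4% and 35.7%, against 4.31%, 5.35%, 4.77% and 10.2% of all tested genes. The shares higher were 7.14%, 7.14%, 7.14% and 0%, against 7.37%, 7.22%, 11.2% and 14.9%. The most even B-type cyclin was the mitotic cyclin S13-6 gene LotjaGi1g1v0659100 (chromosome 1, bases 121977734 to 121980776), named after a soybean cyclin. It had 15.3, 15.2 and 15.0 FPKM in untreated WT, 11.5, 12.01 and 11.2 in untreated line 1 and 9.55, 9.62 and 10.9 in untreated line 2. With salt it had 15.4, 17.0 and 15.3 in WT, 12.6, 11.5 and 11.2 in line 1 and 11.9, 9.69 and 9.66 in line 2. Every WT library was above every line library. The changes were -0.37 (95% interval -0.57 to -0.17, adjusted p = 0.0155) and -0.57 (95% interval -0.77 to -0.37, adjusted p = 0.000581) under control, and -0.42 (95% interval -0.62 to -0.22, adjusted p = 0.00554) and -0.59 (95% interval -0.79 to -0.39, adjusted p = 0.000208) with salt. Without line 1 control replicate 3, the adjusted p in untreated line 1 was 0.0643, and no other fit without 1 library lost a call of this gene.

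A mitotic cyclin-1 gene (LotjaGi2g1v0356100, chromosome 2, bases 83252854 to 83256643) was lower under control. Its FPKM values there were 9.77, 10.2 and 11.1 in WT, 7.25, 7.29 and 7.21 in line 1 and 6.78, 5.88 and 6.78 in line 2, with no overlap between WT and either line. The change was -0.49 (adjusted p = 0.00735) in line 1 and -0.64 (adjusted p = 0.000769) in line 2, kept without any 1 library. With salt its changes were -0.31 (adjusted p = 0.0639) and -0.26 (adjusted p = 0.0929). An assembled transcript named as mitotic cyclin-2 (chromosome 3, bases 80807753 to 80815136) was lower in the lines under salt, where it had 6.88, 7.77 and 7.67 FPKM in WT, 5.82, 5.10 and 4.01 in line 1 and 3.79, 3.20 and 3.49 in line 2. All line libraries lay below those of WT, at -0.55 (adjusted p = 0.00629) in line 1 and -0.99 (adjusted p = 2.05e-05) in line 2. Cyclin-B1-4 (LotjaGi1g1v0052700) fell by 0.47 in untreated line 1, 0.44 in salt-treated line 1 and 0.39 in salt-treated line 2 (adjusted p of 0.0326, 0.0388 and 0.0463), calls that each held in 2 of the 6 fits without 1 library. Cyclin-B2-4 (LotjaGi1g1v0555800) was lower in untreated line 2, with 2.26, 2.52 and 2.58 FPKM against 4.78, 4.24 and 4.62 in WT, at -0.77 (adjusted p = 0.0256), a call kept only without WT control replicate 2 (adjusted p otherwise up to 0.089). An assembled transcript named Cyclin-B1-1 (chromosome 2, bases 22856187 to 22859617) was lower in salt-treated line 2, with 7.72, 5.19 and 6.68 FPKM against 7.78, 10.4 and 9.41 in WT, at -0.47 (adjusted p = 0.0181), a call lost in 3 of the 6 fits without 1 library.

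Not all B-type cyclins were lower. The most abundant, Cyclin-B1-2 LotjaGi3g1v0537400, stood at 31.7 ± 3.12 FPKM in untreated WT, 33.4 ± 2.03 in untreated line 1 and 31.5 ± 1.59 in untreated line 2. It was higher in salt-treated line 1, at 0.29 (adjusted p = 0.0412), a call kept only without WT salt replicate 1 (adjusted p otherwise up to 0.16). A second S13-6 gene, LotjaGi3g1v0290700, had 11.9, 8.77 and 6.89 FPKM in untreated WT and 17.96, 14.1 and 13.4 in untreated line 1, and was higher there, at 0.72 (adjusted p = 0.0125), a call lost without WT control replicate 3 or line 1 control replicate 1 (adjusted p up to 0.0791). It overlaps an opposite-strand histone H3.2 gene listed at 0 over 3774 bases, so the reads of the 2 could not be separated without knowing the strand setting. A low assembled transcript named mitotic cyclin-1 (chromosome 1, bases 32159172 to 32166384) was higher in untreated line 2, at 2.06 ± 0.399 against 1.2 ± 0.112 FPKM in WT and a log2 change of 0.59 (adjusted p = 0.0239), a call kept only without WT control replicate 2 or line 2 control replicate 2 (adjusted p otherwise up to 0.128).

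Genes outside the members that act in mitosis and cytokinesis, such as kinesins, condensin and cohesin subunits, spindle checkpoint proteins and topoisomerase 2, were counted from a list of their own. Of 128 tested, 7 were lower and 1 higher in untreated line 1, 17 and 2 in untreated line 2, 26 and 2 in salt-treated line 1, and 36 and 5 in salt-treated line 2, or 5.47%, 13.3%, 20.3% and 28.1% lower. Among all tested genes 4.31%, 5.35%, 4.77% and 10.2% were lower, so the share in untreated line 1 was near that of all genes. DNA topoisomerase 2 (LotjaGi3g1v0121000), which untangles chromosomes, was at -0.60 (adjusted p = 0.00386) and -0.60 (adjusted p = 0.00334) in untreated line 1 and line 2. In the same comparisons, the spindle protein TPX2 (LotjaGi3g1v0452000) was at -0.59 (adjusted p = 0.00687) and -0.61 (adjusted p = 0.00515). With salt the cohesin subunit SMC1 (LotjaGi5g1v0181700) was at -0.69 (adjusted p = 0.000112) in line 1 and -0.78 (adjusted p = 2.58e-05) in line 2. CDC20.1 (LotjaGi2g1v0447700), which activates the anaphase-promoting complex that destroys mitotic cyclins, was at -0.58 (adjusted p = 0.027), -0.70 (adjusted p = 0.0085), -0.61 (adjusted p = 0.0157) and -0.79 (adjusted p = 0.00185) in untreated line 1, untreated line 2, salt-treated line 1 and salt-treated line 2. Of 20 tested genes of that complex and its activators, 1, 1, 3 and 6 were lower in these comparisons and 1 was higher in each. The shares lower were 5%, 5%, 15% and 30%, of which those under control were near the 4.31% and 5.35% of all tested genes.

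Among the regulators above these genes, the list of E2F, retinoblastoma-related, MYB3R and tesmin-type factors had 3 higher and 2 lower of 20 tested in untreated line 1, 1 and 2 in untreated line 2, 2 and 1 in salt-treated line 1, and 3 and 1 in salt-treated line 2. The shares higher were 15%, 5%, 10% and 15%, against 7.37%, 7.22%, 11.2% and 14.9% of all tested genes. The shares lower were 10%, 10%, 5% and 5%, against 4.31%, 5.35%, 4.77% and 10.2%. These shares of all genes also apply beside the marker counts below. A tesmin/TSO1-like CXC 5 gene (LotjaGi2g1v0217800) was higher in all 4, at 0.67 (adjusted p = 0.00103), 0.77 (adjusted p = 0.000271), 0.86 (adjusted p = 5.92e-05) and 0.90 (adjusted p = 2.67e-05) in the same order. Markers of the shoot meristem and young leaf, where division takes place, were counted from a list drawn by name, such as KNAT, CLAVATA or YABBY. The list was not checked as a measure of dividing tissue. Of 43 listed, 22 were tested and 2 were listed at 0 in every library. Their summed level was 236 ± 2.66 FPKM in untreated WT, 260.1 ± 4.38 in untreated line 1 and 253 ± 3.23 in untreated line 2, and with salt 237 ± 1.48, 244 ± 4.65 and 262 ± 5.09. In both conditions all libraries of the lines lay above those of WT. Of the 22, 2 were higher and 0 lower in untreated line 1, 1 and 0 in untreated line 2, 1 and 1 in salt-treated line 1, and 5 and 2 in salt-treated line 2. Their median changes were 0.07, 0.06, 0.02 and 0.06 in that order. Of 87 flower and pollen markers, 14 at 0 in every library, 25 were tested, of which 2 were lower in untreated line 2 and 1 in salt-treated line 2. Their summed level lay between 230.2 and 306 FPKM in all libraries. A list of 68 root and nodule markers was drawn by name, such as nodulin or SCARECROW. Its leghemoglobins stayed at or below 0.257 FPKM, so the list is no measure of root or nodule tissue. Of the 68, 3 at 0 throughout, 43 were tested, and 3, 2, 8 and 9 were higher and 3, 2, 3 and 2 lower in untreated line 1, untreated line 2, salt-treated line 1 and salt-treated line 2. The shares higher were 6.98%, 4.65%, 18.6% and 20.9%, against 7.37%, 7.22%, 11.2% and 14.9% of all tested genes. The summed level of the 68 was 586, 518 and 467 FPKM in untreated WT, 567, 606 and 568 in untreated line 1 and 510.4, 469.6 and 549 in untreated line 2, with overlap. With salt it was 446, 424 and 425 in WT, 518, 535 and 643 in line 1 and 519, 611 and 599 in line 2, and every line library lay above every WT library. The part of these markers in the differences of the members between lines and WT was not tested.

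A-type cyclins, which act from S phase into mitosis, had few calls: of 5 tested, 1 was lower in untreated line 2, 2 in salt-treated line 1 and 1 in salt-treated line 2. These are 20%, 40% and 20%, against 5.35%, 4.77% and 10.2% of all tested genes, but 1 gene alone makes 20% of the class. In untreated line 1 limma called 0 of the 5, with 1 at an unadjusted p under 0.05 and 0 by voom. Cyclin-A3-4 (LotjaGi1g1v0359200) had 4.19, 3.29 and 4.21 FPKM in untreated WT and 3.36, 4.03 and 5.18 in salt-treated WT. Line 1 had 2.94, 3.11 and 3.16 and 2.81, 3.28 and 1.93, and line 2 had 3.05, 2.86 and 2.61 and 2.89, 2.80 and 2.23, under control and salt. All 12 line libraries lay below all 6 WT libraries, by a narrow margin of 3.29 against 3.28 FPKM. With salt it passed in both lines, at -0.57 (adjusted p = 0.0304) and -0.57 (adjusted p = 0.0211), and under control it did not, at -0.29 (adjusted p = 0.314) and -0.39 (adjusted p = 0.153). The line 1 call was lost without WT salt replicate 2 or WT salt replicate 3 or line 1 salt replicate 3 (adjusted p up to 0.147), and the line 2 call was lost without WT salt replicate 3 or line 2 salt replicate 3 (adjusted p up to 0.105). Cyclin-A2-2 (LotjaGi1g1v0389100) was lower in untreated line 2 alone, with 3.76, 4.17 and 4.18 FPKM against 6.30, 6.68 and 6.24 in WT and a change of -0.61 (adjusted p = 0.0015), kept without any 1 library. Cyclin-A1-1 (LotjaGi1g1v0264900) was lower in salt-treated line 1, at -0.36 (adjusted p = 0.0459), a call kept only without WT salt replicate 2 (adjusted p otherwise up to 0.219).

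Counting all WT libraries against all line libraries, a description chosen after the values had been seen, 5 of 114 members (4.39%) had every line library below every WT library and 0 had every line library above. The 5 were CDKB2-2, MCM2, MCM6, Cyclin-A3-4 and the S13-6 gene LotjaGi1g1v0659100. Of all tested genes, 1.07% lay below in this way and 3.32% above.

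D-type cyclins, which link growth signals to the start of division, split by gene. Of 14 tested, 2 were lower in untreated line 1, 2 in salt-treated line 1, and 3 were lower and 1 higher in salt-treated line 2. The shares lower were 14.3%, 14.3% and 21.4%, against 4.31%, 4.77% and 10.2% of all tested genes. The share higher in salt-treated line 2 was 7.14%, against 14.9%. In untreated line 2 limma called 0 of the 14, with 3 at an unadjusted p under 0.05 and 0 by voom. Cyclin-D1-1 (LotjaGi2g1v0315200, chromosome 2, bases 79065509 to 79071576) had 19.8, 20.8 and 19.3 FPKM in salt-treated WT, 14.4, 13.9 and 12.7 in salt-treated line 1 and 14.7, 15.7 and 14.2 in salt-treated line 2. The WT libraries lay above both lines, at -0.53 (95% interval -0.75 to -0.32, adjusted p = 0.00127) for line 1 and -0.41 (95% interval -0.63 to -0.20, adjusted p = 0.00619) for line 2. Under control it was -0.33 (adjusted p = 0.0448) in line 1, a call kept only without WT control replicate 1 or line 1 control replicate 3 (adjusted p otherwise up to 0.157), and -0.23 (adjusted p = 0.161) in line 2. The Cyclin-D3-3 gene LotjaGi2g1v0376500 (chromosome 2, bases 87381199 to 87387944) had 8.68, 10.3 and 10.8 FPKM in salt-treated WT, 6.16, 6.50 and 4.95 in salt-treated line 1 and 7.03, 4.43 and 4.99 in salt-treated line 2. It was lower in both, at -0.71 (95% interval -1.03 to -0.40, adjusted p = 0.00302) and -0.82 (95% interval -1.13 to -0.50, adjusted p = 0.000681), with no overlap. A more abundant gene of the same name, LotjaGi5g1v0329300, averaged 29.9 ± 3.55 FPKM in salt-treated WT against 26.7 ± 6.95 and 26.2 ± 1.43 in the lines and did not pass in any comparison. The rest of the D-type calls were Cyclin-D2-1 (LotjaGi1g1v0348700) at -0.48 (adjusted p = 0.0208) in untreated line 1, and in salt-treated line 2 the Cyclin-D3-3 gene LotjaGi1g1v0274900 at -0.60 (adjusted p = 0.00211) and Cyclin-D4-1 (LotjaGi5g1v0321600) at 0.49 (adjusted p = 0.0463). The D2-1 call was kept only without WT control replicate 2 or line 1 control replicate 1 (adjusted p otherwise up to 0.0884), the D3-3 call kept without any 1 library, and the D4-1 call kept only without WT salt replicate 1 or line 2 salt replicate 1 (adjusted p otherwise up to 0.17).

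The kinase regulatory subunit CKS1 (LotjaGi3g1v0484000, chromosome 3, bases 90132442 to 90133476), a small protein that binds cyclin-dependent kinases, went the other way. It had 116, 98.8 and 86.7 FPKM in untreated WT, 149, 130.3 and 127 in untreated line 1 and 115, 96.7 and 126 in untreated line 2. With salt it had 97.6, 119 and 108 in WT, 154, 139.7 and 140.4 in line 1 and 177, 163 and 157 in line 2. Line 1 lay above WT in both conditions, and line 2 overlapped WT under control and lay above it with salt. The change was 0.44 (adjusted p = 0.0241) in untreated line 1, 0.16 (adjusted p = 0.425) in untreated line 2, 0.42 (adjusted p = 0.0239) in salt-treated line 1 and 0.61 (adjusted p = 0.0012) in salt-treated line 2. Both line 1 calls were lost with scaling to the gene total and with quantile normalization. The line 1 control call was kept only without WT control replicate 1 or line 1 control replicate 3 (adjusted p otherwise up to 0.138), and the line 1 salt call was lost without WT salt replicate 1 or WT salt replicate 3 or line 1 salt replicate 1 (adjusted p up to 0.0911). The line 2 salt call was kept in every alternative fit of it.

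Of 13 tested kinase inhibitors, 1 was lower in untreated line 1, 1 higher in untreated line 2 and 1 lower in salt-treated line 2, or 7.69% in each, where 11.7%, 12.6% and 25.1% of all tested genes passed in either direction. These were SMR13 (LotjaGi6g1v0135500), of the plant SIAMESE-related inhibitors, at -0.47 (adjusted p = 0.0411), inhibitor 3 (LotjaGi5g1v0161800) at 0.46 (adjusted p = 0.0349), and SMR3 (LotjaGi2g1v0372600_LC) at -0.90 (adjusted p = 0.0234), respectively. The first call was kept only without WT control replicate 2 (adjusted p otherwise up to 0.174), the second lost without any 1 of the 6 libraries (adjusted p up to 0.13), and the third kept only without WT salt replicate 2 or line 2 salt replicate 2 (adjusted p otherwise up to 0.114). The most abundant inhibitor, number 7 (LotjaGi2g1v0400200), held between 11.9 and 12.8 FPKM in all 6 group means and passed in no comparison. In salt-treated line 1, 0 of the 13 inhibitors passed by limma, by voom or at an unadjusted p under 0.05. Of 13 other cyclin-dependent kinases, of types C to G, 1 was higher and 2 were lower in salt-treated line 2: CDKD-1 (LotjaGi1g1v0729700) at 0.46 (adjusted p = 0.00327), CDKC-1 (LotjaGi6g1v0188800) at -0.49 (adjusted p = 0.00401) and CDKF-4 (LotjaGi2g1v0342500) at -0.28 (adjusted p = 0.0158), the last a call lost without WT salt replicate 2 or line 2 salt replicate 2 or line 2 salt replicate 3 (adjusted p up to 0.0682). In untreated line 1, untreated line 2 and salt-treated line 1 limma called 0 of these 13, with 4, 4 and 2 at an unadjusted p under 0.05 and 0 by voom. In salt-treated line 2 the shares were 7.69% higher and 15.4% lower, against 14.9% and 10.2% of all tested genes. Of 14 other cyclins, 1 was higher and 1 lower in untreated line 1, 0 and 1 in untreated line 2, 1 and 0 in salt-treated line 1, and 1 and 1 in salt-treated line 2. A single gene is 7.14% of this class, where 4.31% to 10.2% of all tested genes were lower and 7.22% to 14.9% higher. The calls in untreated line 1 were Cyclin-C1-2 (LotjaGi1g1v0591800) at 0.42 (adjusted p = 0.0449) and the Cyclin-T1-3 gene LotjaGi3g1v0036200 at -0.39 (adjusted p = 0.0454). The C1-2 call was kept only without WT control replicate 3 (adjusted p otherwise up to 0.204), and the T1-3 call kept only without line 1 control replicate 1 (adjusted p otherwise up to 0.18). The lower gene in line 2 was Cyclin-U1-1, described below. Cyclin-H1-1 (LotjaGi5g1v0221600), whose kind partners D-type cyclin-dependent kinases, was higher in both salt-treated lines than in WT, at 0.31 (adjusted p = 0.0424) and 0.34 (adjusted p = 0.0186). The first of these calls was kept only without WT salt replicate 3 (adjusted p otherwise up to 0.175), and the second lost without WT salt replicate 1 or WT salt replicate 2 or line 2 salt replicate 3 (adjusted p up to 0.0908).

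Of 31 tested histone genes, limma called 0 in untreated line 1 and 0 in untreated line 2, where 0 and 1 had an unadjusted p under 0.05 and voom on the recovered reads called 0 in both. With salt, where 11.2% and 14.9% of all tested genes were higher and 4.77% and 10.2% lower in line 1 and line 2, 2 histone genes were higher and 0 lower in each line. These 2 were the H3.3 gene LotjaGi5g1v0009100, described below, at 0.39 (adjusted p = 0.0023) and 0.42 (adjusted p = 0.000851), both kept without any 1 library, and Histone H2B.2 (LotjaGi3g1v0169900), with 0.982, 0.786 and 1.15 FPKM in salt-treated WT, 1.34, 1.70 and 1.45 in salt-treated line 1 and 2.01, 1.59 and 1.91 in salt-treated line 2, at 0.44 (adjusted p = 0.0497) and 0.67 (adjusted p = 0.00291). The H2B.2 call in line 1 was kept only without WT salt replicate 3 (adjusted p otherwise up to 0.188), and that in line 2 was kept without any 1 library. The median histone change was 0.06 and -0.08 in untreated line 1 and line 2 and -0.03 and -0.20 with salt. The leading H3.3 gene (LotjaGi4g1v0094100) had 1023 ± 173 FPKM in untreated WT, 1098 ± 189 in untreated line 1 and 1025 ± 99.8 in untreated line 2, and the log2 intervals were -0.24 to 0.44 and -0.33 to 0.35. The leading H2B gene (LotjaGi5g1v0069100) had 451 ± 74.5, 447 ± 66.4 and 377 ± 29.6, with intervals of -0.34 to 0.32 and -0.58 to 0.08. The H4 gene LotjaGi4g1v0300700 had 132 ± 33.8, 127 ± 46.0 and 119 ± 13.3, with intervals of -0.63 to 0.44 and -0.66 to 0.41. The intervals of the H2B and H4 genes reach the median MCM change of the same line, so a fall of that size is not excluded for them. Those of the H3.3 gene end above it in this fit, which has no term for the library set. Line 1 held more upper libraries than WT, and summed H3 was high in that set, so its H3.3 interval does not settle the question. With salt the intervals were -0.32 to 0.35 and -0.40 to 0.27 for the H3.3 gene, -0.48 to 0.18 and -0.48 to 0.19 for the H2B gene and -0.74 to 0.33 and -0.65 to 0.42 for the H4 gene. There the H4 intervals and the H2B interval of line 1 reach the median MCM change. Those of H3.3, and of H2B in line 2, end above it, with the same limit for line 1. By class, all 8 tested H4 genes had negative estimates in both salt-treated lines, with medians of -0.17 in line 1 and -0.37 in line 2, and none passed, while under control the H4 medians were 0.06 and 0.105. All 8 were also negative in both with quantile normalization, median-of-ratios scaling and scaling to the gene total, and within the 8 upper libraries 4 were in line 1 and 7 in line 2. The median of 9 tested H3 genes in salt-treated line 2 was -0.36, against 0.01 in salt-treated line 1. Near-identical histone copies can split or share reads, and the H2B gene LotjaGi3g1v0169700 overlaps another H2B gene on the same strand by 438 bases, so single histone genes are uncertain.

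The spread of the histones followed the library sets. In all 8 libraries of the upper set the summed H1, H2A, H2B, H3 and H4 levels each lay above the group mean, by a median of 14.3%, 13.1%, 14.1%, 11.2% and 26.1%. In the lower set all 10 libraries lay below it for H2A, H2B, H3 and H4, and 9 of 10 for H1. H4 varied most: within a group its summed level had a median coefficient of variation of 35.4%, against 3.87% for the MCM genes and 3.3% for the B-type cyclins. Summed H4 was 224, 556 and 351 FPKM in WT control replicates 1, 2 and 3, of which replicate 2 belonged to the upper set, and 186, 559.5 and 477 in those of untreated line 1, of which replicates 2 and 3 did. The sets were drawn from all tested genes, these among them. The upper set was named as the end of the component where cytosolic ribosomal protein genes were high, so the direction of those genes was fixed beforehand. Their summed level lay above the group mean in all 8 upper libraries, by a median of 13.4%, and below it in 8 of the 10 lower ones. With the set as a term, histone calls became 2 higher and 4 lower in salt-treated line 1, 3 and 4 in salt-treated line 2, and 0 and 2 in untreated line 2, and stayed at 0 in untreated line 1.

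**Figure D3:**
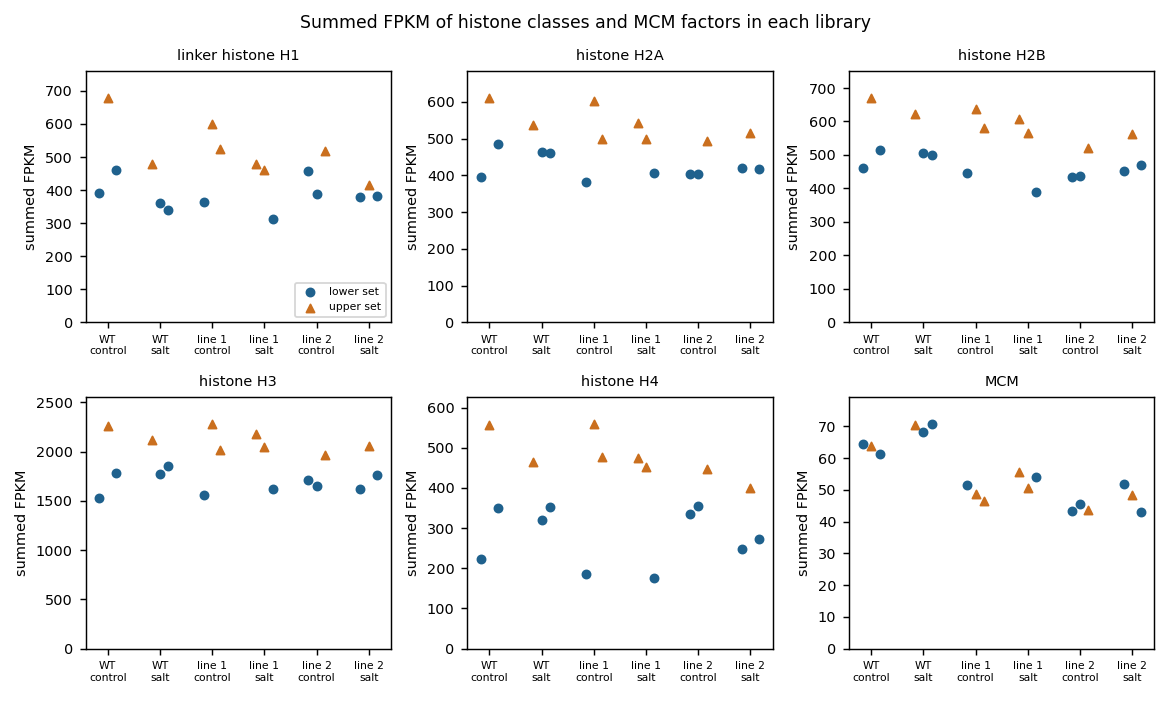
Summed FPKM (y axis) of each histone class and of the MCM genes in each library by group (x axis); triangles are the 8 libraries of the upper set and circles the 10 of the lower set. In the H2A, H2B, H3 and H4 panels the triangles lie above the circles of their group, and in the MCM panel they do not, while its WT points lie above those of the lines.

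Salt was compared with control in each genotype. In WT, 4 members were higher and 6 lower with salt, where 6.35% and 9.91% of all tested genes were; the 8.77% of members that passed compares with 16.3% of all genes. In line 1, 4 were higher and 1 lower, against 4.19% and 4.42% of all genes, or 8.61% in either direction. In line 2, 8 were higher and 7 lower, against 4.24% and 4.42%, or 8.66% in either direction. Without overlap between the libraries, 19 members were higher and 11 lower in WT (14.7% and 15.9% of all tested genes), 11 and 15 in line 1 (14.1% and 12.4%) and 21 and 21 in line 2 (17.2% and 15.3%). The median member changed by 0.04, -0.07 and -0.04 in WT, line 1 and line 2. With median-of-ratios scaling the split was 2 higher and 7 lower in WT and 3 and 2 in line 1. With scaling to the gene total it was 2 and 1 in line 1 and 3 and 8 in line 2, and with quantile normalization 6 and 8 in line 2. Without WT control replicate 1 or 3 the count in WT fell from 10 to 5 or 3, and without any 1 WT salt library to 6. Without line 1 salt replicate 3 it fell from 5 to 2 in line 1, and without its control replicate 2 or 3 to 3. Without line 2 control replicate 1, 2 or 3 it fell from 15 to 5, 5 or 6 in line 2, and without its salt replicate 1, 2 or 3 to 9. Licensing factors changed little with salt: 1 of 7 passed in WT, MCM5 at 0.36 (adjusted p = 0.0419), a call kept only without WT salt replicate 2 (adjusted p otherwise up to 0.163). In the lines limma and voom called 0, with 0 and 1 at an unadjusted p under 0.05, and the 7 changes were -0.07 to 0.23 for line 1 and -0.14 to 0.34 for line 2.

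Cyclin-U1-1 (LotjaGi3g1v0191500, chromosome 3, bases 27728181 to 27730108), one of the plant U-type cyclins, whose fold is related to yeast PHO80, gave the clearest salt change. It had 31.4, 32.9 and 34.9 FPKM in untreated WT and 58.5, 67.4 and 60.6 in salt-treated WT. Line 1 had 29.9, 29.1 and 26.1 under control and 69.7, 58.2 and 65.7 with salt, and line 2 had 26.4, 25.6 and 24.8 and 46.7, 42.0 and 47.3. Each salt library was above each control library of its genotype. It rose by 0.90 (95% interval 0.71 to 1.09, adjusted p = 1.36e-06) in WT, 1.17 (95% interval 0.98 to 1.36, adjusted p = 7.53e-07) in line 1 and 0.81 (95% interval 0.62 to 1.00, adjusted p = 0.00013) in line 2. It was also lower in line 2 than in WT, at -0.36 (adjusted p = 0.0126) under control, a call lost without WT control replicate 3 or line 2 control replicate 3 (adjusted p up to 0.0641), and -0.45 (adjusted p = 0.00139) with salt. The mean salt effect of the lines differed from that of WT by 0.09 (95% interval -0.14 to 0.32, adjusted p = 0.72).

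Of 14 tested D-type cyclins, 2 rose with salt in each genotype, or 14.3%. The shares higher among all tested genes were 6.35%, 4.19% and 4.24% in WT, line 1 and line 2. In line 2, 2 also fell, or 14.3% against 4.42%, and 0 fell in WT and line 1. The rising ones were 2 of the 4 members that rose in WT, 2 of 4 in line 1 and 2 of 8 in line 2. Cyclin-D1-1 (LotjaGi2g1v0315200) rose in WT, from 14.2, 17.4 and 16.3 to 19.8, 20.8 and 19.3 FPKM, at 0.32 (adjusted p = 0.0388), and Cyclin-D3-2 (LotjaGi1g1v0358000) at 0.39 (adjusted p = 0.0466). The first call was kept only without WT control replicate 2 (adjusted p otherwise up to 0.177), and the second was lost without any 1 of the 6 libraries (adjusted p up to 0.145). In line 1, Cyclin-D2-1 (LotjaGi1g1v0348700) went from 2.92, 2.94 and 2.76 to 4.76, 4.62 and 4.88 FPKM, without overlap, at 0.64 (95% interval 0.37 to 0.91, adjusted p = 0.00382), and kept its call without any 1 library. The Cyclin-D3-3 gene LotjaGi4g1v0100700 rose in line 1 and line 2, at 0.37 (adjusted p = 0.0394), a call kept only without line 1 salt replicate 2 (adjusted p otherwise up to 0.171), and 0.46 (adjusted p = 0.0152), a call lost without line 2 control replicate 1 or line 2 control replicate 3 (adjusted p up to 0.0578), and stood at 0.28 (adjusted p = 0.0955) in WT. Cyclin-D4-1 (LotjaGi5g1v0321600) rose in line 2, at 0.64 (adjusted p = 0.0292), a call kept only without line 2 salt replicate 1 (adjusted p otherwise up to 0.13). The 2 other called genes of the D3-3 name fell in line 2: LotjaGi1g1v0274900 at -0.56 (adjusted p = 0.0129) and LotjaGi2g1v0376500 at -0.55 (adjusted p = 0.032). The first call was lost without line 2 control replicate 1 (adjusted p = 0.0649), and the second kept only without line 2 salt replicate 1 (adjusted p otherwise up to 0.114). Cyclin-A2-2 (LotjaGi1g1v0389100) rose in line 2, from 3.76, 4.17 and 4.18 to 6.36, 5.45 and 6.38 FPKM, at 0.53 (95% interval 0.30 to 0.77, adjusted p = 0.00869). WT had 6.07 ± 0.634 FPKM with salt (SD, n = 3).

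Among kinases, CDKC-1 (LotjaGi6g1v0188800, chromosome 6, bases 48402662 to 48408476), whose kind partners cyclin T and phosphorylates RNA polymerase II, fell with salt in line 2, from 9.89, 10.9 and 11.7 to 6.32, 7.19 and 8.06 FPKM, at -0.57 (95% interval -0.80 to -0.33, adjusted p = 0.0057). A CDKF-4 gene (LotjaGi4g1v0145400) fell in WT and line 1, at -0.41 (adjusted p = 0.0232), a call lost without WT control replicate 1 or WT control replicate 3 or WT salt replicate 1 (adjusted p up to 0.12), and -0.50 (adjusted p = 0.0134), a call lost without line 1 salt replicate 3 (adjusted p = 0.0575), and stood at -0.25 (adjusted p = 0.209) in line 2. The more abundant CDKF-4 gene LotjaGi2g1v0342500 fell in line 2, at -0.31 (adjusted p = 0.0237). CKS1 rose in line 2, at 0.56 (adjusted p = 0.00924), a call lost without line 2 control replicate 2 (adjusted p = 0.0528). SMR3 in line 2 had 2.91, 1.86 and 1.74 FPKM under control and 0.341, 1.45 and 0.754 with salt, a change of -1.04 (adjusted p = 0.0269) at levels near the limit of the filter, and its call was kept only without line 2 salt replicate 2 (adjusted p otherwise up to 0.121). SMR13 rose in line 1 and line 2, at 0.51 (adjusted p = 0.0337) and 0.51 (adjusted p = 0.0375), the first call being kept only without line 1 salt replicate 1 (adjusted p otherwise up to 0.139) and the second kept only without line 2 control replicate 1 (adjusted p otherwise up to 0.143). A pair of neighbouring Cyclin-T1-3 genes fell in WT: LotjaGi3g1v0036100 at -0.36 (adjusted p = 0.0309) and LotjaGi3g1v0036200 at -0.38 (adjusted p = 0.0414). A Cyclin-U2-2 gene (LotjaGi1g1v0232800_LC) fell in line 2, at -0.63 (adjusted p = 0.0319), and an H3.3 gene (LotjaGi2g1v0382900) rose there, at 0.47 (adjusted p = 0.0246). The calls of the second Cyclin-T1-3 gene, Cyclin-U2-2 and this H3.3 gene were lost in 5 of the 6 fits without 1 library, and those of the first Cyclin-T1-3 gene and of the CDKF-4 gene LotjaGi2g1v0342500 in 4. In WT Histone H2B.2 (LotjaGi3g1v0169900) fell, from 1.56, 1.77 and 1.60 to 0.982, 0.786 and 1.15 FPKM, at -0.55 (adjusted p = 0.0147), a call lost without WT control replicate 2 or WT salt replicate 2 (adjusted p up to 0.0767). Of the 128 mitosis and cytokinesis genes, 1 was higher and 3 were lower with salt in WT, or 0.781% and 2.34%, against 6.35% and 9.91% of all tested genes.

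**Figure D4:**
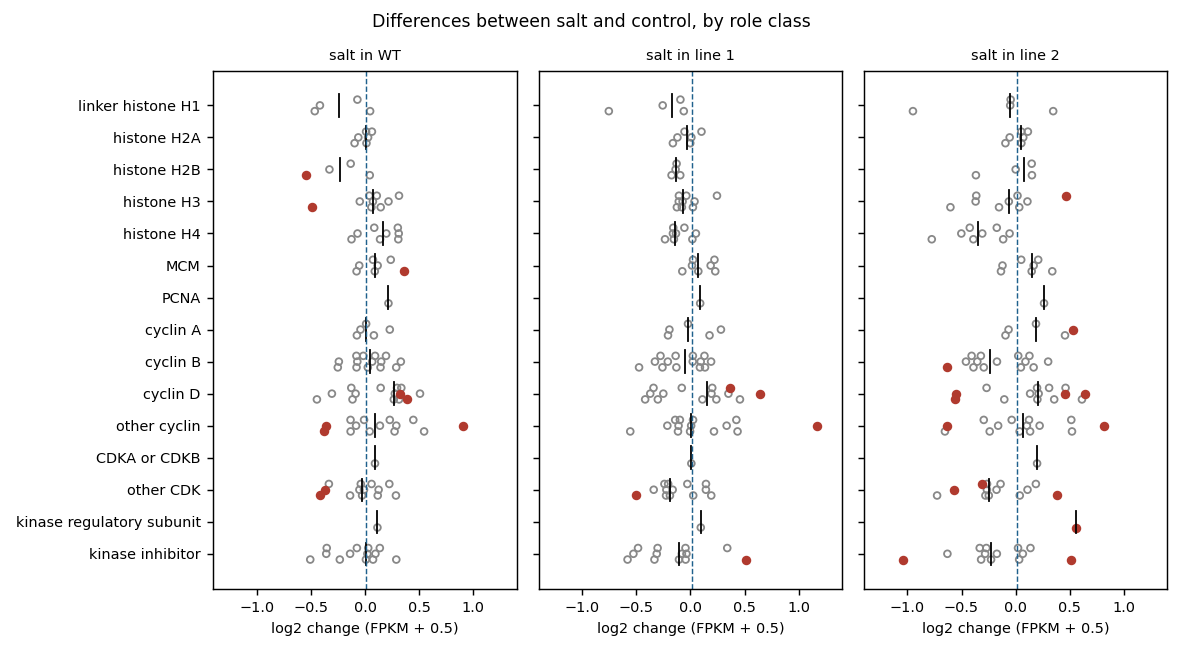
Log2 change of each tested member between salt and control (x axis, log2 of FPKM + 0.5) by role class (y axis) in WT, line 1 and line 2; filled points passed an adjusted p of 0.05 and bars mark class medians. The rightmost filled point of each panel is Cyclin-U1-1, at 0.90, 1.17 and 0.81.

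The salt effect itself was compared between genotypes as the mean effect in the 2 lines minus that in WT. Of the members, 2 had a higher and 2 a lower effect in the lines (3.51%), against 8.16% of all tested genes, 5.89% higher and 2.27% lower. With scaling to the gene total the split was 2 and 1. Of the 7 MCM genes limma and voom called 0, with 0 at an unadjusted p under 0.05. Their differences ran from -0.17 to 0.19 and their intervals lay between -0.47 and 0.63, so for each gene a difference within its own interval is not excluded. Without WT control replicate 1 or 2, WT salt replicate 2 or 3, or line 2 control replicate 3, the count of 4 members fell to 2.

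The H3.3 gene LotjaGi5g1v0009100 (chromosome 5, bases 1964760 to 1966835), a form of H3 that is deposited outside S phase as well, had 123, 137 and 124 FPKM in untreated WT and 90.9, 92.1 and 89.8 in salt-treated WT. Line 1 had 123, 132 and 121 and 114, 115 and 128, and line 2 had 112, 109 and 119 and 119, 115 and 131, under control and salt. The 3 WT salt libraries were below every other library of the series. The gene fell with salt in WT, at -0.49 (95% interval -0.65 to -0.32, adjusted p = 0.000218), and changed by -0.07 (adjusted p = 0.68) in line 1 and 0.11 (adjusted p = 0.427) in line 2. The difference between the salt effects was 0.51 (95% interval 0.30 to 0.71, adjusted p = 0.00238). The call was kept without any 1 library and with the library set as a term. Within the 8 upper libraries the difference was 0.50 and did not pass.

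CDKD-1 (LotjaGi1g1v0729700, chromosome 1, bases 130140191 to 130146213), of the kinases that activate other cyclin-dependent kinases, had 8.03, 7.77 and 9.05 FPKM in untreated WT and 6.35, 5.70 and 6.92 in salt-treated WT. Line 1 had 6.92, 7.27 and 6.42 and 7.30, 7.99 and 8.51, and line 2 had 6.39, 7.14 and 6.61 and 9.41, 8.11 and 9.14. WT fell without overlap and both lines were higher with salt than under control without overlap. The changes were -0.37 (adjusted p = 0.0195) in WT, 0.19 (adjusted p = 0.309) in line 1 and 0.38 (adjusted p = 0.0314) in line 2. The WT call was lost without WT control replicate 3 or WT salt replicate 2 (adjusted p up to 0.103), the line 2 call was kept only without line 2 salt replicate 2 (adjusted p otherwise up to 0.112), and the difference of the effects was 0.65 (95% interval 0.39 to 0.92, adjusted p = 0.00263), kept without any 1 library. It was 0.77 within the 10 lower libraries and 0.48 within the 8 upper ones, and passed in neither.

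The other 2 members had a lower salt effect in the lines than in WT. An assembled transcript named Cyclin-B1-2 (chromosome 1, bases 126930386 to 126934049) had 8.72, 10.1 and 9.67 FPKM in salt-treated WT, 8.18, 8.68 and 5.02 in salt-treated line 1 and 5.46, 4.68 and 5.78 in salt-treated line 2. It changed with salt by 0.19 (adjusted p = 0.52) in WT, -0.47 (adjusted p = 0.0921) in line 1 and -0.63 (adjusted p = 0.0263) in line 2, and the difference was -0.75 (adjusted p = 0.0289). The line 2 call was kept only without line 2 salt replicate 3 (adjusted p otherwise up to 0.109). Against WT it was at -0.79 (adjusted p = 0.00213) in salt-treated line 2, kept without any 1 library. The Cyclin-D3-3 gene LotjaGi1g1v0274900 had 2.66, 2.84 and 3.15 and 2.83, 3.37 and 3.54 FPKM in WT and 3.46, 2.88 and 3.06 and 2.20, 1.71 and 2.00 in line 2, under control and salt. Line 1 had 3.46, 2.92 and 3.12 and 2.48, 2.87 and 2.40. It changed with salt by 0.14 (adjusted p = 0.534) in WT, -0.25 (adjusted p = 0.279) in line 1 and -0.56 (adjusted p = 0.0129) in line 2, with a difference of -0.55 (adjusted p = 0.0359). Of 18 fits without 1 library, 6 ended the call of the assembled transcript (adjusted p up to 0.0842) and 11 that of LotjaGi1g1v0274900 (adjusted p up to 0.0971).

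**Figure D5:**
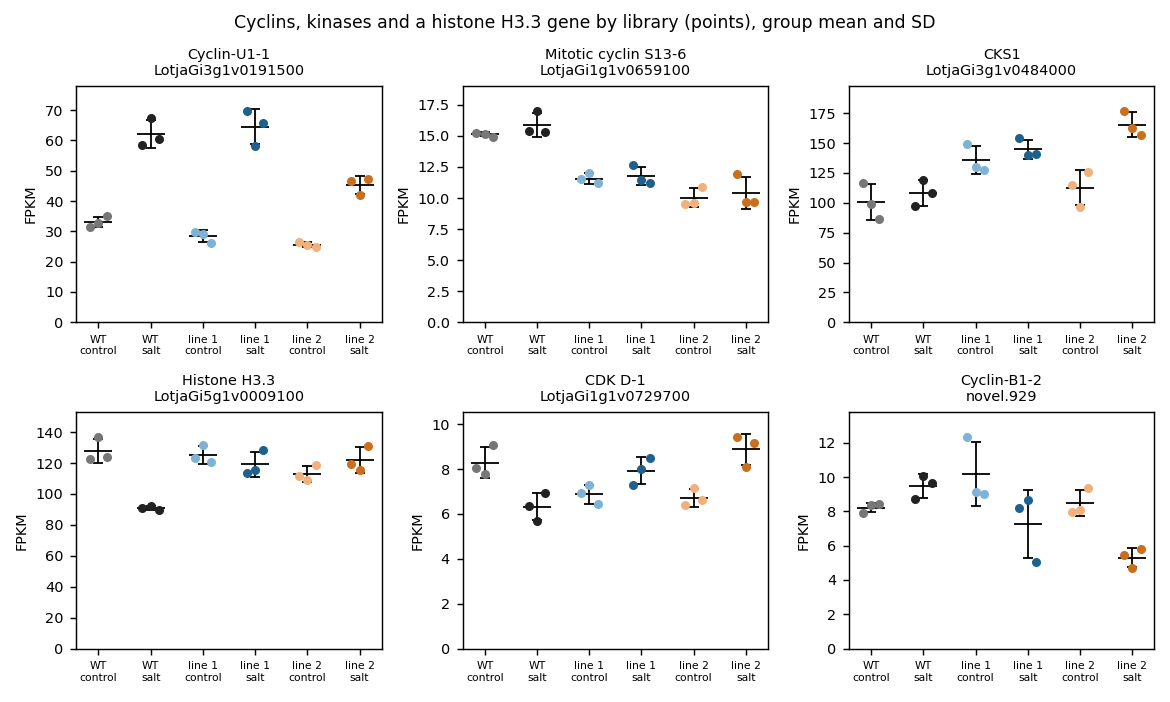
FPKM (y axis) of 6 members in each library (points) by group (x axis), with means and SD as bars (n = 3). Cyclin-U1-1 is higher with salt in each genotype, the S13-6 gene is lower in both lines, and for the H3.3 gene the WT salt points lie below all others.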

How the data were processed

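Polyadenylated RNA of 18 shoot libraries was sequenced from strand-marking libraries, per the labels' protocols. The deposited table gives FPKM values per gene, made by the authors, and the submitters' processing notes name fastp, featureCounts 1.5.0-p3 and DESeq2 1.20.0. Which aligner, genome build and strand option were used is not given in the sources used here, and coordinates follow the deposited table. FPKM times gene length, times a denominator found for each library from its smallest step, gave whole reads within 0.05 for 100% of the values above 0, and voom on these reads was an alternative.

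Genes with at least 1 FPKM in 3 or more libraries (20433 of 33994) were fitted with limma 3.58.1 (R 4.3.3) on log2(FPKM + 0.5), with 6 group means, a variance trend and 12 residual degrees of freedom. P-values were adjusted by Benjamini-Hochberg over all tested genes, with a threshold of 0.05, and intervals are 95%. The script was tested on simulated data. P-values measure the spread between libraries labelled as biological replicates, and the labels do not say that these came from separate pots. A change is called when it passed this threshold, and members, all called ones included, are named by role. The members and the gene lists, which were drawn from protein names, were chosen with earlier results of these data known. Alternatives were other pseudocounts, filters, scalings and fits, the replicate number as a block and leaving out each library. Fits with or within the library sets, and 27 similarly named genes outside the rule, were added after the data were seen. Of those, 19 were tested.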

Additional observations from a re-analysis of the deposited data

Results flagged for a closer look

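The salt effect differed between the lines and WT, by a test of the difference itself, for 4 members, each of which is described above with its values. It was higher in the lines for the H3.3 gene LotjaGi5g1v0009100, by 0.51 on the log2 scale, and for CDKD-1 (LotjaGi1g1v0729700), by 0.65. It was lower in the lines for the assembled Cyclin-B1-2 transcript on chromosome 1, at -0.75, and for the Cyclin-D3-3 gene LotjaGi1g1v0274900, at -0.55. In the 18 fits without 1 library the first 2 differences kept their calls, and the other 2 lost them in 6 and 11.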

How the results depend on the processing

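Of the 105 called changes, 103 were followed through the alternatives, and none of these changed sign in any. The calls of the assembled Cyclin-B1-1 transcript in salt-treated line 2 and of LotjaGi3g1v0036100 with salt in WT were followed only in the fits without 1 library. Of 103 called changes of named members, 103 were kept with a pseudocount of 0.1, 102 with a pseudocount of 1, 101 with the library set as a term, 99 with median-of-ratios scaling, 97 with voom, 90 with quantile normalization, 88 with no filter on low values, 85 with the replicate block, 73 with scaling to the gene total, 54 in fits on the compared groups alone, 27 within the lower and 22 within the upper set of libraries. A mean of at least 5 FPKM kept 84 and lost 0 of those still tested, and 37 were kept in every alternative that did not use the library sets. The cause of the losses was not tested.

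The number of called members was 10 with salt in WT, 5 with salt in line 1, 15 with salt in line 2, 14 in line 1 control, 14 in line 2 control, 17 in line 1 salt, 26 in line 2 salt and 4 for the difference of the salt effects. Scaling to the gene total gave 6 with salt in WT, 3 with salt in line 1 and 9 in line 1 control. Fits on the compared groups alone gave 4 with salt in WT, 3 with salt in line 1, 5 in line 1 control, 6 in line 1 salt and 16 in line 2 salt. The library set as a term gave 24 in line 2 control. The 10 lower libraries alone gave 3 with salt in WT, 2 with salt in line 1, 1 with salt in line 2, 0 in line 1 control, 3 in line 2 control, 14 in line 2 salt and 2 for the difference. The 8 upper libraries alone gave 6 with salt in WT, 1 with salt in line 2, 2 in line 1 control, 1 in line 2 control, 7 in line 1 salt, 13 in line 2 salt and 0 for the difference. Some groups hold a single library in such a subset, which is then assumed to vary like the rest.

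Leaving out 1 library gave 3 to 7 with salt in WT, 2 to 5 with salt in line 1, 5 to 9 with salt in line 2, 4 to 9 in line 1 control, 7 to 15 in line 2 control, 10 to 13 in line 1 salt, 20 to 27 in line 2 salt and 2 to 5 for the difference.

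The replicate numbers did not pair the samples: correlations of same-numbered deviations ran from -0.42 to 0.48. With the number as a block, the counts in the order above were 7, 4, 14, 11, 12, 13, 25 and 3. Precision was limited by 3 libraries a group and, for the histones, by their spread between the library sets.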

Other observations

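Of 19 tested genes whose names resemble those of the members but fall outside the rule, 3 passed between the lines and WT (limma), all with salt. All 3 passed in salt-treated line 2, where 25.1% of all tested genes did, a larger share than 3 of 19. A gene named putative cyclin-B3-1 (LotjaGi3g1v0298600) was higher than in WT in both salt-treated lines. It was at 0.69 (adjusted p = 0.0338) in line 1 and 0.61 (adjusted p = 0.041) in line 2 on the log2 scale. Of all tested genes, 11.2% were higher in salt-treated line 1. A gene named cell division control protein 2 homolog C (LotjaGi3g1v0346400) was higher in salt-treated line 2, at 0.43 (adjusted p = 0.0144). One named probable histone H2A.5 (LotjaGi1g1v0771500) was lower in salt-treated line 2, at -0.56 (adjusted p = 0.0197).

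Of 14 tested histone chaperone genes, which hand new histones to DNA, 2 were lower in untreated line 1, 1 in untreated line 2, 1 in salt-treated line 1 and 3 in salt-treated line 2. The shares lower were 14.3%, 7.14%, 7.14% and 21.4%, against 4.31%, 5.35%, 4.77% and 10.2% of all tested genes. FASCIATA 2 (LotjaGi1g1v0208800), a subunit of the assembly factor that works behind the replication fork, was at -0.53 (adjusted p = 0.0295) in untreated line 1, -0.49 (adjusted p = 0.038) in untreated line 2 and -0.53 (adjusted p = 0.0158) in salt-treated line 2.

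Among growth regulators and tubulins, some salt changes were larger than those of the members. Of 43 tested growth regulators, 6.98%, 6.98% and 4.65% were higher with salt in WT, line 1 and line 2. The shares lower were 11.6%, 9.3% and 4.65%. Of 18 tested tubulins, 11.1%, 16.7% and 27.8% were higher and 11.1%, 11.1% and 5.56% lower. Among all tested genes 6.35%, 4.19% and 4.24% were higher and 9.91%, 4.42% and 4.42% lower. A tubulin alpha-3 gene (LotjaGi1g1v0643600) was at -2.004 (adjusted p = 1.9e-07) in WT and -1.54 (adjusted p = 2.1e-05) in line 1. An expansin-A10 gene (LotjaGi6g1v0042100), of the proteins that loosen cell walls, was at 1.43 (adjusted p = 1.57e-06) and 1.25 (adjusted p = 3.77e-05). In line 2 both changed less, as no tubulin was below -0.83 and no growth regulator above 0.998 there.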
